A study of Homo sapiens with 6 samples.

Results

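The comparison covers H3K4me2 ChIP-seq in LNCaP cells after 4 h of GSK2879552 (GSK 4 h) against vehicle, on chromosomes 1 to 22. LNCaP is an androgen-responsive prostate cancer cell line, and GSK2879552 inhibits the demethylase LSD1 (KDM1A). Each entry of a peak list is called a region here, and the members are all autosomal entries of both lists. The vehicle list held 97240 of them (101165 on all sequences) and the GSK 4 h list held 124364 (129776 on all sequences), together 221604 of the 359493 entries in the 3 lists of the series. Regions of 1 list only are those that share not a single base with the other list.

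The vehicle group comprised 2 samples given vehicle without GSK, and the GSK 4 h group comprised 2 samples that the labels describe as DHT with GSK2879552 for 4 h. DHT is the androgen that activates the androgen receptor. The treatment description for all samples names GSK2879552 without DHT, after 3 days in 5% charcoal-stripped serum, which removes steroid hormones. The inhibitor and the androgen cannot be told apart in a difference between these lists. According to the design text of the series, both replicates of a group went into 1 list, so no value carries a replicate error, no test between conditions was possible, and whether the replicates were separate cultures is not given. The labels give both replicates of a group the same pair of index sequences, so they may be repeat runs of 1 library. The identity of the cells was not checked by marker genes, because no annotation of the build of the lists (hg19) was used, and for the same reason no region is assigned to a gene.

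H3K4me2 is dimethylation of lysine 4 on histone H3. It sits on the nucleosomes that flank active and poised enhancers and promoters, often on both sides of an open site bound by transcription factors. LSD1 removes the mono- and dimethyl marks from H3K4 as part of repressor complexes such as CoREST and NuRD, and it also serves as a coactivator of the androgen receptor in prostate cells. H3K4me2 is thus a substrate of the enzyme that GSK2879552 inhibits.

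The lists were of similar depth and differed in fragment length and in the significance of their strongest regions. The genome-wide background recovered from the peak values corresponded to 9.43 tags per kb for vehicle and 10.1 tags per kb for GSK 4 h, a ratio of 1.07. The peak caller gives no region shorter than 1 fragment, and the shortest region measured 221 bp for vehicle and 186 bp for GSK 4 h. Median coverage at the summit, the position of highest coverage in a region, was 23 fragments for vehicle and 21 for GSK 4 h. The median -log10 q given by the peak caller was 8.96 for vehicle and 8.65 for GSK 4 h. A -log10 q of at least 100 was reached by 5453 vehicle but 128 GSK 4 h regions. The cause of this difference was not tested. Intervals in parentheses are Wilson 95% intervals, which cover counting error only.

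The first question was how much of the genome carried the mark and in how many pieces. The GSK 4 h list had 1.28 times as many regions as the vehicle list and covered 69.6 Mb against 58.3 Mb, 1.19 times as much. A spanned Mb of autosome held 34.8 vehicle regions and 44.5 GSK 4 h regions. The increase thus lay in the number of regions and not in their size, as mean length was 599 bp for vehicle and 560 bp for GSK 4 h.

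Median length was 476 bp for vehicle regions (interquartile range 311 to 782 bp) and 439 bp for GSK 4 h regions (271 to 749 bp). The difference of -37.0 bp was about that of the shortest regions, -35.0 bp. With the shortest length of each list subtracted, the medians were 255 and 253 bp. The direction turned when only the 97240 top regions of each list by -log10 p were kept, where the GSK 4 h median was longer by 69.0 bp. Regions under 300 bp, near the lower limit of length, made up 22.6% of the vehicle list and 30.3% of the GSK 4 h list. Regions of 1000 to below 2000 bp numbered 13071 (13.4%) and 14879 (12.0%), and those of 2000 bp or more numbered 587 and 675. Short and long regions alike were therefore more numerous after GSK 4 h, and the short ones took a larger share of the list.

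**Figure D1:**
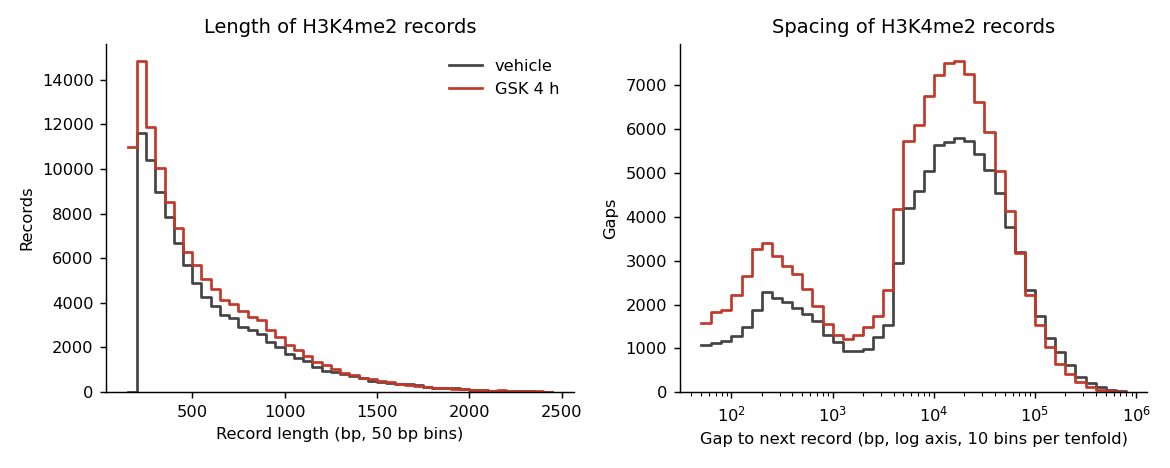
The left panel plots the number of regions against region length in 50 bp bins, and the right panel plots the number of gaps between neighbouring regions against gap size on a log axis, for the vehicle list (grey) and the GSK 4 h list (red). The curves have the same shape, with a close set of gaps under 1 kb and a wide set that is highest from 15849 to 19953 bp in both lists. GSK 4 h has more gaps under 10 kb (63509 against 44701) and fewer over 50 kb (13672 against 14622).

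The longest region was the same place in both lists. It lay on chromosome 1 (hg19) from 152081514 to 152084956 in the vehicle list, 3443 bp with 162 fragments at the summit, and from 152081334 to 152084981 in the GSK 4 h list, 3648 bp with 147 fragments. The summits were 2011 bp apart, so the highest point lay on opposite sides of the middle of a region that itself stayed in place. The second longest was also common to both lists, on chromosome 6 from 58776254 to 58779581 (3328 bp, vehicle) and from 58776243 to 58779613 (3371 bp, GSK 4 h). It was the last region before a stretch of 3122461 bp without any vehicle region and 3133161 bp without any GSK 4 h region. Whether such a stretch is assembled sequence was not examined, and no regions were removed as mapping artefacts.

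The third longest regions were different places, each with a partner in the other list. The third longest vehicle region lay on chromosome 15 from 41219824 to 41223087 (3264 bp), and a single GSK 4 h region of 3240 bp covered 98.6% of it. The third longest GSK 4 h region lay on chromosome 19 from 10399755 to 10403075 (3321 bp) and overlapped a single vehicle region of 2688 bp, with summits 1139 bp apart.

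Spacing was examined next, as the gap from the end of a region to the start of the next on the same chromosome. The median gap was 11728 bp for vehicle and 9565 bp for GSK 4 h, and the upper quartile was 31449 and 25232 bp. The lower quartile went from 2076 to 952 bp with 21.7% and 25.2% of gaps under 1 kb, and the 10th and 90th percentiles went from 239 to 188 bp and from 67844 to 53386 bp. Regions therefore lay closer together after GSK 4 h over the whole range of distances. With only the 97240 top GSK 4 h regions set against the whole vehicle list, the GSK 4 h median gap was the larger, by 542.5 bp. Removing regions from 1 list widens its gaps by construction.

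Gaps under 1 kb numbered 21126 in the vehicle list (21.7%, 21.47 to 21.99) and 31375 in the GSK 4 h list (25.2%, 24.99 to 25.5), 1.49 times as many. Gaps over 100 kb fell in number from 5271 to 4093, a ratio of 0.777, and gaps over 50 kb numbered 14622 and 13672. At equal list length, 21.73% and 22.03% of gaps were under 1 kb, so the excess of close neighbours was then small. The smallest gap was 52 bp in both lists.

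Close neighbours form chains, and chains were counted by joining regions separated by at most 1 kb. The vehicle list held 76109 such groups, of which 58622 (77.0%) were single regions, and the GSK 4 h list held 92986, of which 67901 (73.0%) were single. Chains of 3 or more regions numbered 3130 for vehicle and 5125 for GSK 4 h, and those of 5 or more numbered 56 and 176. The longest chain had 7 regions in each list. In all, 39.7% of vehicle regions and 45.4% of GSK 4 h regions stood in a chain.

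Gap sizes had a step between 3 and 6 kb in both lists. The vehicle list had 1886 gaps of 3 to 4 kb, 2867 of 4 to 5 kb and 3320 of 5 to 6 kb, and the GSK 4 h list had 2820, 4053 and 4495. Gaps of 5 to 6 kb were thus 1.76 (vehicle) and 1.59 (GSK 4 h) times as common as those of 3 to 4 kb. Against gaps of 4 to 5 kb they were 1.16 and 1.11 times as common, so most of the step lay near 4 kb. Where a region was called against a local background, this corresponded to whole tags per 10 kb (tolerance 0.05 tags) for 99.997% of 66078 vehicle and 100% of 83661 GSK 4 h regions. Its part in the step was not tested.

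The next question was which places the lists had in common. Of the vehicle regions, 82039 (84.4%, 84.1 to 84.6) overlapped a GSK 4 h region, and the other 15201 (15.6%) had no GSK 4 h partner. Of the GSK 4 h regions, 83465 (67.1%, 66.9 to 67.4) overlapped a vehicle region, and the other 40899 (32.9%) had no vehicle partner. The excess of 27124 regions in the GSK 4 h list was close to the excess of 25698 in regions of 1 list only. By length, the lists shared 45.5 Mb, which was 78.1% of the vehicle bases and 65.4% of the GSK 4 h bases. At equal list length, 22.3% of vehicle and 22.4% of GSK 4 h regions were in 1 list only. Equal numbers with mostly 1 to 1 overlap make these shares close by construction. They therefore do not show what the asymmetry went with.

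Whether a region had a partner depended on its length. Of vehicle regions under 300 bp, 38.1% (37.5 to 38.7) were in that list only, and of GSK 4 h regions under 300 bp, 65.7% (65.2 to 66.2) were. Among regions of 500 to below 1000 bp the shares were 3.79% and 9.90%, and at 1000 to below 2000 bp they were 0.666% and 0.437%. Every region of 2000 bp or more had a partner, as 0 of 587 vehicle regions (which allows a share of up to 0.511%) and 0 of 675 GSK 4 h regions (up to 0.444%) were in 1 list only. Regions in 1 list only were thus mostly short. A longer region has more bases to share, so a partner is more likely by construction. The lists also differed at regions of 2000 bp or more, where 66.8% of vehicle and 36.0% of GSK 4 h regions overlapped 2 or more regions of the other list.

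Significance showed the same gradient. Each list was ranked by -log10 p into 10 classes of equal size, from the weakest (class 1) to the strongest (class 10). Within the vehicle list, the share in that list only fell from 36.7% in the weakest class to 0.463% in the strongest. Within the GSK 4 h list it fell from 75.2% to 0.0482%, passing 50.9% in class 4 and 4.08% in class 8. In class 9 the order was the opposite of that in the weaker ones, with 2.56% (2.26 to 2.89) for vehicle and 0.844% (0.698 to 1.02) for GSK 4 h.

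**Figure D2:**
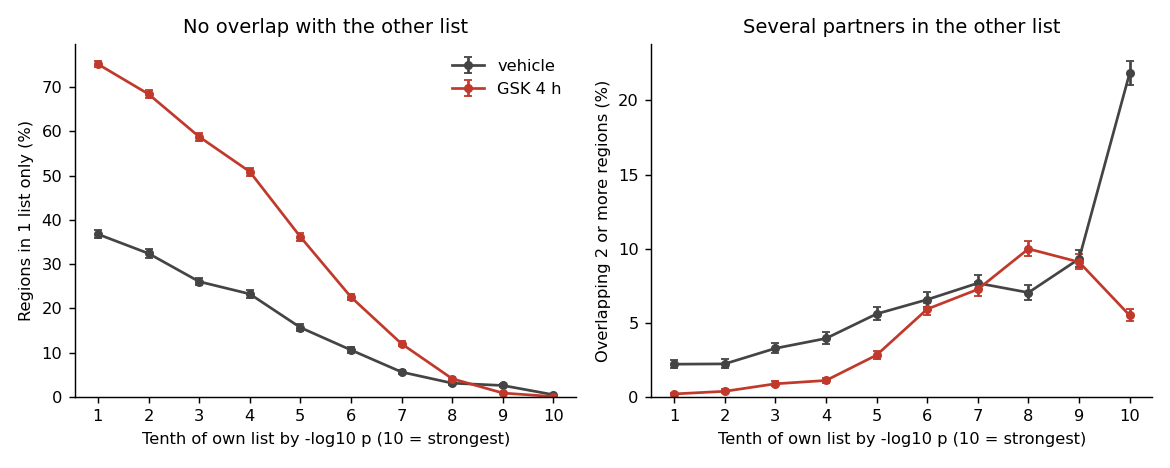
Each panel plots 10 equal classes of a list ranked by -log10 p (10 the strongest) against a share of regions in percent, for vehicle (grey) and GSK 4 h (red), with Wilson 95% intervals. Left, the share in 1 list only falls from 36.7% and 75.2% to 0.463% and 0.0482% in the strongest class, and right, the share overlapping 2 or more regions rises to 21.9% in the strongest vehicle class against 5.49% for GSK 4 h.

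Among strong regions, those without a partner belonged mostly to the vehicle list. A -log10 q of at least 30 was reached by 14512 vehicle and 14176 GSK 4 h regions, so the sets were of similar size, although -log10 q ran higher in the vehicle list (up to 359, against 181 for GSK 4 h) and a fixed threshold therefore takes different ranks in the lists. Of these, 170 vehicle regions (1.17%, 1.01 to 1.36) but 9 GSK 4 h regions (0.0635%, 0.0334 to 0.121) were in 1 list only, against backgrounds of 15.6% and 32.9% over the whole lists. At a -log10 q of at least 50 there were 34 of 9089 for vehicle and 0 of 4414 for GSK 4 h. By rank, the strongest class held 45 vehicle and 6 GSK 4 h regions without a partner. The 170 vehicle regions had a median length of 487 bp and a median of 96.5 fragments at the summit, the lowest having 37 and the highest 314. A GSK 4 h region lay within 1 kb of 102 of the 170, on both sides of 54 of them, and none lay that near the other 68. The median distance was 523.5 bp, so these strong vehicle regions often stood between or beside GSK 4 h regions.

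The strongest vehicle regions without a partner show both situations. The first, on chromosome 10 from 22609261 to 22609975, had a -log10 q of 112 and 252 fragments at its summit, with a GSK 4 h region only 54 bp away. The second, on chromosome 2 from 60778688 to 60779134, had a -log10 q of 110 and 235 fragments, and the nearest GSK 4 h region was 370 bp away. The third, on chromosome 8 from 144358025 to 144358632, had a -log10 q of 90.5 and 192 fragments, and the nearest was 1748 bp away. Their percentiles by -log10 q within the vehicle list were 94.9, 94.9 and 93.9.

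Their GSK 4 h counterparts had lower -log10 q, at percentiles of 94.8, 92.6 and 92.1 within their list. The first, on chromosome 19 from 9316311 to 9316960, had a -log10 q of 43.3 and 50 fragments, 4801 bp from the nearest vehicle region. The second, on chromosome 4 from 170948480 to 170949020, had a -log10 q of 37.6 and 82 fragments, with a vehicle region 348 bp away. The third, on chromosome 2 from 202897626 to 202898239, had a -log10 q of 36.3 and 89 fragments, with a vehicle region 210 bp away. Except for the one on chromosome 19, these too lay beside regions of the other list.

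Most regions of 1 list only were weak and lay at some distance from the other list. The median distance to the nearest region of the other list was 2744 bp for vehicle (interquartile range 347 to 10217 bp) and 6349 bp for GSK 4 h (661 to 18397 bp). Of the 40899 GSK 4 h regions, 11747 (28.7%, 28.3 to 29.2) lay within 1 kb of a vehicle region, 19649 (48.0%) at 5 to 50 kb and 2881 (7.04%) beyond 50 kb. Of the 15201 vehicle regions, 5950 (39.1%, 38.4 to 39.9) lay within 1 kb of a GSK 4 h region, 5711 (37.6%) at 5 to 50 kb and 443 (2.91%) beyond 50 kb. The vehicle list has fewer regions, so distances to it are longer by construction, and at equal list length the medians were 5079 bp (vehicle) and 5519.5 bp (GSK 4 h).

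Length hardly varied with distance in the GSK 4 h list. Its regions of 1 list only had a median length of 262 bp within 1 kb of a vehicle region and 265 bp beyond 50 kb, and 11.4% of the near ones and 6.49% of the far ones reached a -log10 q of 10. Over all, 7.94% of GSK 4 h regions and 10.9% of vehicle regions in 1 list only reached it, against 62.6% and 52.0% of those shared.

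The regions farthest from the other list were named only among those with a -log10 q of at least 10, so their strength was set by that choice. Beyond 50 kb, only 6.49% of the GSK 4 h regions and 6.32% of the vehicle regions of 1 list only reached it. Without this limit the largest distances were 927820 bp for GSK 4 h and 322486 bp for vehicle. Among those with a -log10 q of at least 10, the farthest GSK 4 h region lay on chromosome 4 from 97992248 to 97992812, 286292 bp from any vehicle region, with 20 fragments at the summit. The next lay on chromosome 4 from 61005969 to 61006462 (242621 bp away, 22 fragments), and the third on chromosome 6 from 141018790 to 141019043 (233992 bp away, 18 fragments). The median over the whole GSK 4 h list was 21 fragments. The first of them was not alone, since another GSK 4 h region ended 305 bp before it.

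With the same limit on -log10 q, the farthest vehicle region lay on chromosome 4 from 172219401 to 172219766 (234601 bp from any GSK 4 h region, 19 fragments). The next lay on chromosome 5 from 30228809 to 30229193 (198416 bp, 22 fragments) and on chromosome 1 from 106676576 to 106677344 (182301 bp, 23 fragments). The median of the vehicle list was 23 fragments. Regions isolated by more than 50 kb on both sides within their own list were in 1 list only in 815 of 4384 cases for vehicle (18.6%, 17.5 to 19.8) and 1498 of 3400 for GSK 4 h (44.1%, 42.4 to 45.7). Both shares were above those of the whole lists (15.6% and 32.9%).

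Regions with a close neighbour were less often without a partner than their list as a whole. Of GSK 4 h regions with a neighbour under 1 kb away, 27.4% (27.0 to 27.7) had no vehicle partner, against 32.9% of the list, and of such vehicle regions 12.7% (12.3 to 13.0) had no GSK 4 h partner, against 15.6%. Of the 31375 pairs of GSK 4 h neighbours under 1 kb apart, both regions were shared with vehicle in 17908 (57.1%), exactly 1 was in 9911 (31.6%) and neither was in 3556 (11.3%). In the vehicle list, both were shared in 16493 of 21126 pairs (78.1%), 1 in 3992 (18.9%) and neither in 641 (3.03%).

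Matching was not always 1 to 1, and a region of one list could be found in several pieces in the other. Among vehicle regions, 6773 (6.97%) overlapped 2 or more GSK 4 h regions, and 213 overlapped 3 or more. Among GSK 4 h regions, 5360 (4.31%) overlapped 2 or more vehicle regions, and 197 overlapped 3 or more. Splitting of vehicle regions outnumbered their fusion, but at equal list length the numbers were 5187 and 5272, and with regions within 1 kb merged they were 300 and 773, so the direction turned under both. Among regions with a -log10 q of at least 10 in both lists, 2748 vehicle regions were split and 1100 GSK 4 h regions spanned several vehicle regions.

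Splitting increased with length and was most frequent among strong vehicle regions. It affected 0.736% of vehicle regions under 300 bp, 7.43% of those from 500 to below 1000 bp, 24.5% (23.8 to 25.2) of those from 1000 to below 2000 bp and 66.8% (62.9 to 70.5) of the 587 longer ones. The corresponding shares for GSK 4 h regions that overlapped several vehicle regions were 0.135%, 5.63%, 17.4% and 36.0%. By -log10 q, splitting of vehicle regions rose from 2.23% below 5 to 7.67% at 20 to below 30 and 29.6% (27.7 to 31.6) at 100 to below 150, then fell to 9.95% (8.60 to 11.5) at 200 and above. Every one of the 1648 vehicle regions in that last class had a partner, and their median length was 1167 bp against 1257 bp at 100 to below 150.

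Length and strength were taken apart in classes of both. Among vehicle regions of 1000 to below 1500 bp, 19.7% (18.6 to 20.9) were split at a -log10 q under 30, 18.3% (16.9 to 19.8) at 30 to below 100 and 17.4% (16.0 to 18.9) at 100 or more. Among those of 1500 to below 2000 bp the shares were 39.4% (35.4 to 43.5), 49.0% (46.0 to 52.1) and 44.4% (41.6 to 47.1), and among those of 500 to below 1000 bp they were 8.04%, 5.14% and 3.09%. At a given length, strong vehicle regions were therefore not split more often than weak ones except from 1500 bp.

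The vehicle regions with the most GSK 4 h partners had 4 each. The longest of them, on chromosome 7 from 148395198 to 148397095 (1898 bp, -log10 q of 147, 244 fragments), was met by GSK 4 h regions of 723, 188, 202 and 267 bp that covered 65.0% of it. The others lay on chromosome 2 from 92324175 to 92326050 (1876 bp) and on chromosome 15 from 69110119 to 69111314 (1196 bp). The one on chromosome 2 was the last region before 3084413 bp without a vehicle region, and whether that stretch is assembled sequence was not examined. The strongest GSK 4 h piece on chromosome 7 had a -log10 q of 66.6. For all vehicle regions at a -log10 q of 100 to below 150, the strongest GSK 4 h partner had a median of 37.5.

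In the other direction, 3 GSK 4 h regions with 4 vehicle partners are named by the same rule. The first, on chromosome 4 from 146857206 to 146860297 (3092 bp, -log10 q of 18.01), joined vehicle regions of 230, 221, 1007 and 949 bp, the strongest of which had a -log10 q of 109. The second lay on chromosome 11 from 71750432 to 71753325 (2894 bp) and the third on chromosome 11 from 61559144 to 61561299 (2156 bp). In the third, a vehicle summit lay 6 bp from the GSK 4 h summit, and the -log10 q was 48.5 for GSK 4 h and 46.7 for the strongest vehicle partner.

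Summits were compared at the 65534 regions matched 1 to 1, which were 67.4% of the vehicle list and 52.7% of the GSK 4 h list. The median displacement was 82.0 bp (interquartile range 34.0 to 174 bp), less than 1 fragment, and the summits lay within 100 bp of each other at 37346 of them (57.0%) and over 500 bp apart at 2167 (3.31%). Displacement had no side, with a signed median of 0 bp and quartiles of -81.0 and 83.0 bp. It increased with the length of the vehicle region, from a median of 69.0 bp under 300 bp to 164 bp at 1000 to below 2000 bp and 402.5 bp (272 to 497, order statistic interval) at the 190 matched regions of 2000 bp or more. A longer region leaves more room for displacement, and the median vehicle lengths in these classes were 251, 1204 and 2186.5 bp. Compared with the shortest class, displacement in the longer ones thus grew by less than length.

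Displacement varied with the strength of a vehicle region, but not in 1 direction. The distance from a vehicle summit to the nearest summit of an overlapping GSK 4 h region had a median of 109 bp at a -log10 q below 5, 90.0 bp at 5 to below 10, 68.0 bp at 20 to below 30, 137 bp at 50 to below 75 and 215 bp at 100 to below 150, and was 122 bp at 200 and above. Within the same length class of 1000 to below 1500 bp, the medians were 121 bp under a -log10 q of 30, 140 bp at 30 to below 100 and 188 bp at 100 or more, and from 500 to below 1000 bp they were 94.0, 77 and 105 bp. The base of the vehicle summit itself was still inside a GSK 4 h region for 94.9% of regions at 20 to below 30, 89.0% at 50 to below 75 and 99.2% at 100 to below 150. For GSK 4 h regions the medians stayed between 84.0 and 109 bp from a -log10 q of 10 to below 20 up to 100 to below 150.

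**Figure D3:**
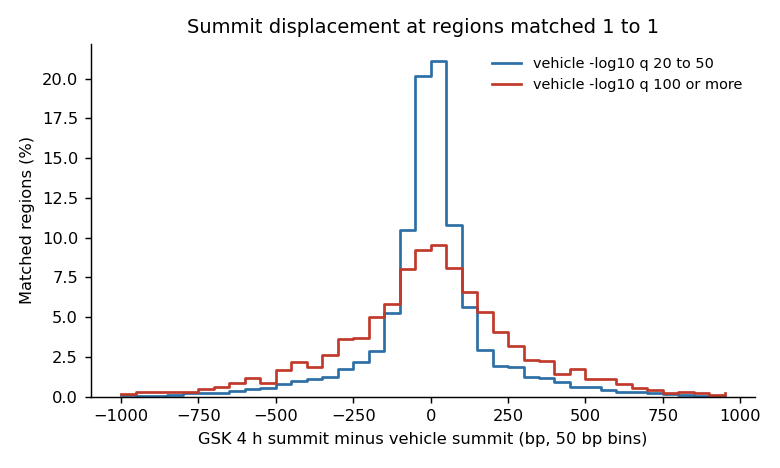
The share of regions matched 1 to 1 (in percent) is plotted against the GSK 4 h summit position minus the vehicle summit position in 50 bp bins, for vehicle regions with a -log10 q of 20 to 50 (blue) and of 100 or more (red). Both are centred on 0, and the 50 bp bin just above 0 holds 21.1% of the first set but 9.56% of the second, whose displacements are spread more widely on both sides.

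At matched regions the length difference ran against that of the whole lists. The GSK 4 h region was the longer one at 37816 of 65534 (57.7%), with a median difference of 31.0 bp (interquartile range -72.0 to 153 bp) and medians of 531 bp (vehicle) and 595 bp (GSK 4 h). This depended on which list set the classes. By vehicle length, the GSK 4 h partner was longer by a median of 92.0 bp for vehicle regions under 300 bp and by 12.0 bp for those of 1000 to below 2000 bp. By GSK 4 h length, GSK 4 h regions under 300 bp differed from their partners by -79.0 bp and those of 1000 to below 2000 bp by 112 bp. Regions kept under both conditions were thus on balance slightly longer after GSK 4 h, despite its shorter fragments.

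The distribution over chromosomes was not even. GSK 4 h had more regions than vehicle on all 22 chromosomes, from 1.34 times as many on chromosomes 13 (3100 against 2305) and 18 (3001 against 2232) to 1.08 times on chromosome 19 (4165 against 3840). Chromosomes 19, 17, 16, 22 and 1, in that order, had the lowest ratios (1.08, 1.20, 1.23, 1.24 and 1.25), and in the same order they had the shortest median gaps in the vehicle list (6949, 8219, 8882, 8931 and 10478 bp). Over the 22 chromosomes, Spearman's rho between ratio and vehicle gap was 0.840 and Pearson's r was 0.835, as a description only, since the vehicle list enters both measures. Chromosome 19 is the most gene-dense human chromosome, and chromosomes 4, 13 and 18 are gene-poor. The gain in region number thus tended to be larger on chromosomes where H3K4me2 regions were sparse.

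**Figure D4:**
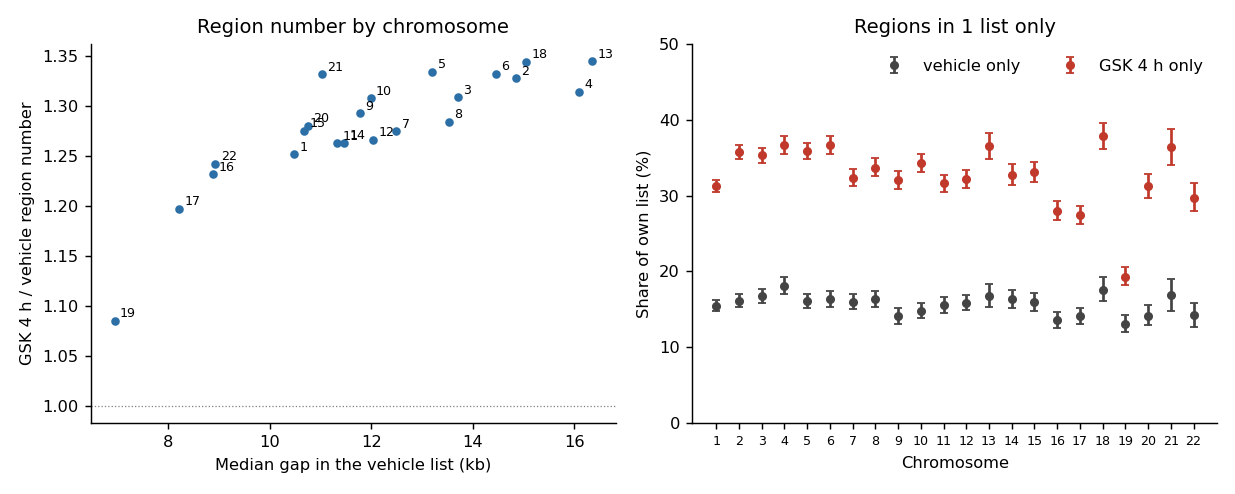
Left, the ratio of GSK 4 h to vehicle region number is plotted against the median gap between vehicle regions in kb, with 1 numbered point per chromosome and a dotted line at equal number. Right, the share of each list found in that list only (percent, Wilson 95% intervals) is plotted by chromosome, where GSK 4 h only (red) falls to 19.3% on chromosome 19 against 27.4% to 37.8% elsewhere.

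Chromosome 19 differed in more than number. Of its GSK 4 h regions 19.3% (18.1 to 20.5) were in that list only, against a background of 32.9% over all autosomes and 33.4% over the other 21. The vehicle share was 13.1% (12.0 to 14.2) against 15.7%. Median length there rose from 594 to 611 bp, while on the other 21 chromosomes it was shorter in the GSK 4 h list, with differences from -9 bp on chromosome 22 to -51.5 bp on chromosome 3. Regions were also longer and stronger on chromosome 19 in both lists, with 23.4% of vehicle and 23.1% of GSK 4 h regions at 1000 bp or more against 13.7% and 12.1% elsewhere, and a median -log10 q of 14.5 (vehicle) and 15.3 (GSK 4 h).

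Within classes of length the lower share on chromosome 19 was present in the GSK 4 h list but not among short vehicle regions. Among GSK 4 h regions under 300 bp, 58.4% (55.0 to 61.7) on chromosome 19 and 65.9% (65.4 to 66.4) elsewhere were in that list only. From 300 to below 500 bp the shares were 26.5% (23.6 to 29.6) and 38.2% (37.7 to 38.7), and from 500 to below 1000 bp they were 6.31% (5.20 to 7.64) and 10.1% (9.75 to 10.4). In the vehicle list the values were higher on chromosome 19, with overlapping intervals, at 40.7% (36.9 to 44.7) on chromosome 19 and 38.0% (37.4 to 38.7) elsewhere under 300 bp, and 21.04% (18.6 to 23.7) and 18.8% (18.3 to 19.2) from 300 to below 500 bp. At equal list length, chromosome 19 held 3602 GSK 4 h and 3840 vehicle regions, a ratio of 0.938 against 1.003 for the other autosomes.

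Finer positions were described in fixed 1 Mb windows. Of 2733 windows with any region, 2590 (94.8%, 93.9 to 95.5) held more GSK 4 h than vehicle regions, 56 held the same number and 87 held fewer. In the 1948 windows with at least 20 vehicle regions, the ratio had a median of 1.27, with 90% of windows between 1.03 and 1.65. A ratio below 1 was thus rare, and the rise was spread over nearly the whole genome.

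The rise was smaller where regions were dense. With windows ranked by the sum of both lists into 5 classes of equal size, the ratio of GSK 4 h to vehicle regions was 1.43, 1.39, 1.36, 1.29 and 1.18 from the sparsest to the densest class. The share of GSK 4 h regions in that list only fell from 45.0% to 26.2% over the same classes, and the vehicle share from 22.99% to 13.98%. Of the 87 windows with fewer GSK 4 h regions, 38 were in the sparsest class and 20 in the densest, so both ends held more of them than the classes between (16, 7 and 6).

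**Figure D5:**
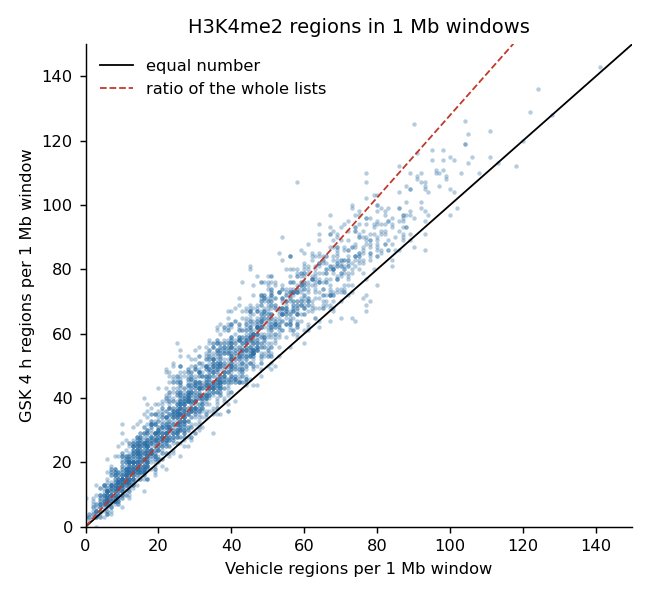
Each point is a 1 Mb window, with vehicle regions on the horizontal and GSK 4 h regions on the vertical axis, a black line at equal number and a dashed red line at the ratio of the whole lists (1.28). Sparse windows scatter widely and on balance lie above the dashed line, with ratios of 1.43 and 1.39 in the 2 sparsest of 5 classes. Windows with many vehicle regions fall below the dashed line towards the line of equal number.

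The windows with the largest rise, after scaling to equal list length, held 25 to 58 vehicle regions, around the median of 32 over all windows. The first, on chromosome 5 from 69000001 to 70000000, held 58 vehicle and 107 GSK 4 h regions, and 52 of the latter had no vehicle partner. The second, on chromosome 3 from 25000001 to 26000000, held 25 and 57, and the third, on chromosome 10 from 80000001 to 81000000, held 45 and 81. In the third, 36 GSK 4 h regions and 1 vehicle region had no partner. How the mapping treated sequence present in several copies was not examined for any window.

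The largest falls after scaling were windows packed with regions under both conditions. Windows were ranked by the difference in region number after scaling and not by the ratio. A dense window with equal numbers in both lists therefore ranks as a large fall by construction, so the density of these windows is not a finding. They lay on chromosome 17 from 73000001 to 74000000 (118 vehicle and 112 GSK 4 h regions), on chromosome 19 from 1000001 to 2000000 (141 and 143, the most of any window in either list) and on chromosome 16 from 2000001 to 3000000 (128 and 128). Before scaling, only the first of these lost regions. In it, 18 vehicle and 14 GSK 4 h regions had no partner.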

How the data were processed

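H3K4me2 ChIP-seq peak lists were analysed. Per the design text, the authors made each deposited list from both replicates together. The submitters' notes name BWA 0.7.2-r351, SAMtools 0.1.18, MACS2 2.0.10.20131216 and hg19 (GRCh37), without settings, and whether an input control was used is not given in the sources used here. The authors' fold enrichment is a ratio of a summit to its local background, and the deposited -log10 p-value and -log10 q-value belong to the same caller. The deposited score is the -log10 q-value times 10, cut to a whole number in nearly every entry. These are not normalised between lists.

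Entries on chromosomes 1 to 22 were compared with Python 3.11.15, numpy 2.4.6, pandas 2.3.3 and scipy 1.17.1, with an overlap of at least 1 bp. Starts are given 1-based. Summit coverage in fragments was recovered from the fold and p-value (whole numbers that matched the -log10 p within 0.001 for all but 2 vehicle regions), and the background divided by the shortest region gave the depth. The steps were tested on simulated lists. No test between conditions was run, since each group is 1 list.

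The members, classes and lists were chosen with earlier results of these data known. Named per list were the 3 longest regions, the 3 highest in -log10 q and the 3 farthest (-log10 q of at least 10) among those of 1 list only, the 3 with most partners, and the 3 windows with the largest rise and fall. Alternatives were a -log10 q of at least 10, equal list length, merging within 1 kb, widening GSK 4 h regions by the fragment difference, 50% coverage, all sequences, summit distances, short regions and 5 Mb windows.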

Additional observations from a re-analysis of the deposited data

Results flagged for a closer look

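The GSK 4 h list also held regions outside chromosomes 1 to 22, which the comparisons leave out, and each set exceeded that of the vehicle list. Chromosome X had 3274 GSK 4 h and 2405 vehicle regions, 1.36 times as many. The alternate haplotypes of chromosome 6 had 934 and 601, 1.55 times as many. Other sequences had 1204 and 919, 1.31 times as many, against 1.28 on the autosomes. These sets were noted because they lie outside the main measurement and were above the control level. How the mapping treated sequence present in several copies was not examined.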

How the results depend on the processing

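No paired analysis was possible because replicates were joined before deposit, and for the same reason no replicate could be left out. Checks at marker gene and other promoters were not run without an hg19 annotation. Shares and medians are judged against narrow counting intervals, so 32 of 42 alternative values count as moved, 8 as the same and 2 as reversed. Length and spacing reversed at equal list length, where GSK 4 h regions were longer by 69.0 bp and their median gap larger by 542.5 bp, against -37.0 and -2162.5 bp as reported. This setting left the vehicle list whole and removed only the weakest GSK 4 h regions, which by itself lengthens the median and widens the gaps. Depth limits the weak regions, since the median summit had 21 or 23 fragments, and a region missing from a list was not called there, which does not show that the mark was absent.

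With a -log10 q of at least 10, the log2 ratio of region number (0.35 as reported) was 0.32, the shares of shared regions were 83.97% (vehicle) and 70.1% (GSK 4 h), the length difference was -14.0 bp, the gap difference -4800 bp and the summit displacement 84.0 bp. The same threshold gave 2748 split vehicle regions and 1100 GSK 4 h regions with several partners, distances of 9868 bp (vehicle only) and 14578 bp (GSK 4 h only), a log2 difference of -0.17 for chromosome 19 (-0.25 as reported) and 82.6% of windows with more GSK 4 h regions. At equal list length, the shares were 77.7% and 77.6%, the distances 5079 and 5519.5 bp, the chromosome 19 difference -0.096, and 12 of 22 chromosomes had more GSK 4 h regions. Merging within 1 kb gave a log2 ratio of 0.29, shares of 85.9% and 69.8%, and 300 and 773 regions with several partners. Widening the GSK 4 h regions gave 84.6% and 67.4% and a length difference of -2.00 bp, as did subtracting the shortest length (-2.00 bp). With 50% of a region covered the shares were 78.1% and 59.8%. Displacement was 75 bp with 50% of both regions covered and 61.0 bp with both under 500 bp. Of 5 Mb windows, 99.5% held more GSK 4 h regions. The cause of these shifts was not tested, apart from the fewer regions that a threshold or equal length leaves.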
